A study of Mus musculus with 6 samples.

Results

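The collagen and laminin chains of the irradiated mouse cortex were compared between *Lgmn*+/+-IR and *Lgmn*-/--IR mice. They were taken from the count table as every gene whose symbol has the form of a collagen alpha chain (Col, a type number, a and a chain number) or of a laminin alpha, beta or gamma chain, which gave 55 of 51826 genes, 44 of collagen and 11 of laminin. They were set apart as 11 fibrillar collagen chains, 19 basement membrane chains (type IV collagen, *Col15a1*, *Col18a1* and the laminins) and 25 other collagen chains. Both groups were male BALB/c mice aged 6–8 weeks that received a single whole-brain X-ray dose of 10 Gy, and the cortex was taken on day 3, with 3 libraries of polyA RNA per genotype. *Lgmn*+/+-IR mice carried wild-type *Lgmn*, the gene of asparagine endopeptidase (AEP, legumain), a lysosomal protease. *Lgmn*-/--IR mice descended from 1 embryonic stem cell clone with a floxed *Lgmn*, whose selection cassette was removed with Flp mice before the mating with Cre mice. The Cre driver is not given in the sources used here. No sham-irradiated samples are analysed here, and all contrasts are of genotypes after irradiation. Nothing in the labels says that the libraries of a genotype came from separate animals, so the *p* values measure the spread between these samples.

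Collagen and laminin chains are assembled into trimers, most of which are secreted. Fibrillar collagens form the fibers that give tensile strength, and in the brain they lie in the meninges and in the outer wall of larger vessels. Type IV collagen and the laminins, each an alpha, a beta and a gamma chain wound together, build the sheets of basement membrane that surround brain endothelium, pericytes and smooth muscle and line the astrocyte endfeet at the brain surface. The other collagens include microfibrils (type VI), chains that decorate fibrils, short-chain networks, and transmembrane collagens, some of which are made by neurons.

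All 55 chains had enough counts to be among the 18345 genes tested with edgeR's quasi-likelihood test. Total counts per library lay between 41874462 and 46829441. Values per library are given for *Lgmn*+/+-IR replicates 1 to 3 and, after "against", for *Lgmn*-/--IR replicates 1 to 3. *Lgmn* itself had 5558, 5528 and 5775 counts against 3703, 3269 and 4109 (log2 fold change −0.64, SE 0.12, adjusted *p* = 0.0315). Because reads were summed over the gene, the deleted part cannot be seen in them, and the adjusted *p* rose to as much as 0.131 with 1 library left out. Neuron markers were high and similar in both groups (0 of 8 passed the test with edgeR, DESeq2 or limma-voom, and 0 had an unadjusted *p* under 0.05). The libraries stood apart in the summed level of 8 striatal genes, a list chosen after the data were seen. It was 463, 1268 and 1978 against 1933, 406 and 399 CPM (counts scaled to library size with edgeR's TMM factors). A fit with the mean log2(CPM + 1) of these 8 genes as a covariate was therefore added. Calls below that were lost in this fit are given with its adjusted *p*. For *Lgmn* the adjusted *p* was then 0.0558.

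The chains were expressed over a wide range, read here as FPKM, the deposited value per transcript length and library size (mean over the 6 libraries). *Col6a1*, a chain of microfibrillar collagen VI, was the highest at 9.65 FPKM, followed by the laminin beta chain *Lamb2* at 6.98, the fibril-decorating *Col9a2* at 5.98 and the basement membrane chains *Col4a2* and *Col4a1* at 5.61 and 4.42. The highest fibrillar chain was *Col1a2* at 3.25 FPKM. A mean of more than 1 FPKM was reached by 21 chains, namely 4 fibrillar, 9 basement membrane and 8 other chains. Libraries of 1 genotype varied by a median coefficient of variation of 19.1% (*Lgmn*+/+-IR) and 19.5% (*Lgmn*-/--IR) over the 55 chains, against 11.9% and 14.2% over all genes tested.

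**Figure D1:**
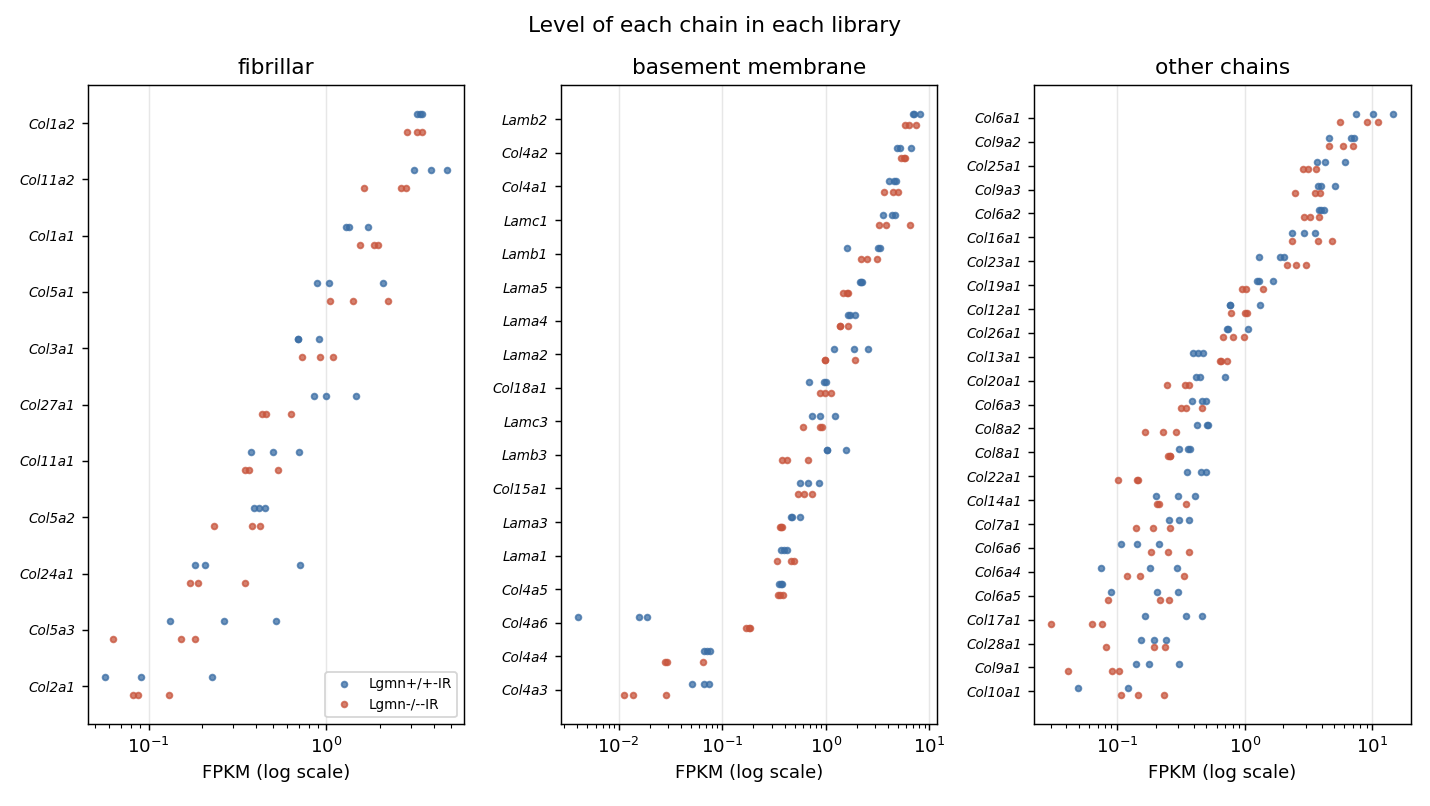
FPKM (log scale) of each of 54 chains in each library, with fibrillar, basement membrane and other chains in separate panels, ordered by mean. Each point is 1 library, 3 per genotype, and *Col4a6* is the chain whose genotypes stand farthest apart.

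Few chains differed between the genotypes. Of 55 chains, 5 passed an adjusted *p* of 0.05 (9.09%), against 3.33% of all genes tested. The chain of type IV collagen *Col4a6* rose (1 chain, against 1.65% of all genes) and the laminin chains *Lamb3* and *Lama5* and the collagen chains *Col22a1* and *Col17a1* fell (4 chains, against 1.68% of all genes). With an absolute log2 fold change over 1 as well, the threshold that the study set for a DEG, 4 chains remained (7.27%, against 2.06% of all genes), without *Lama5*. No fibrillar chain, 3 basement membrane chains and 2 other chains passed. Of the 11 fibrillar chains, 2 had an unadjusted *p* under 0.05, against 3413 of all 18345 genes tested. DESeq2 called 2 fibrillar chains and limma-voom called 1.

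The chains lay below 0 more often than above. The median log2 fold change over the 55 chains was −0.24, with 36 below 0 (65.5%), and over all genes tested it was −0.01, with 51.7% below 0. In 16 chains every *Lgmn*-/--IR library lay below every *Lgmn*+/+-IR library (29.1%, against 13.3% of all genes), and in 4 chains every one lay above (7.27%, against 12.4%). The medians of the groups were −0.24 for the fibrillar, −0.20 for the basement membrane and −0.29 for the other chains, so the groups did not separate from each other by their medians. These counts describe the list and were not tested.

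**Figure D2:**
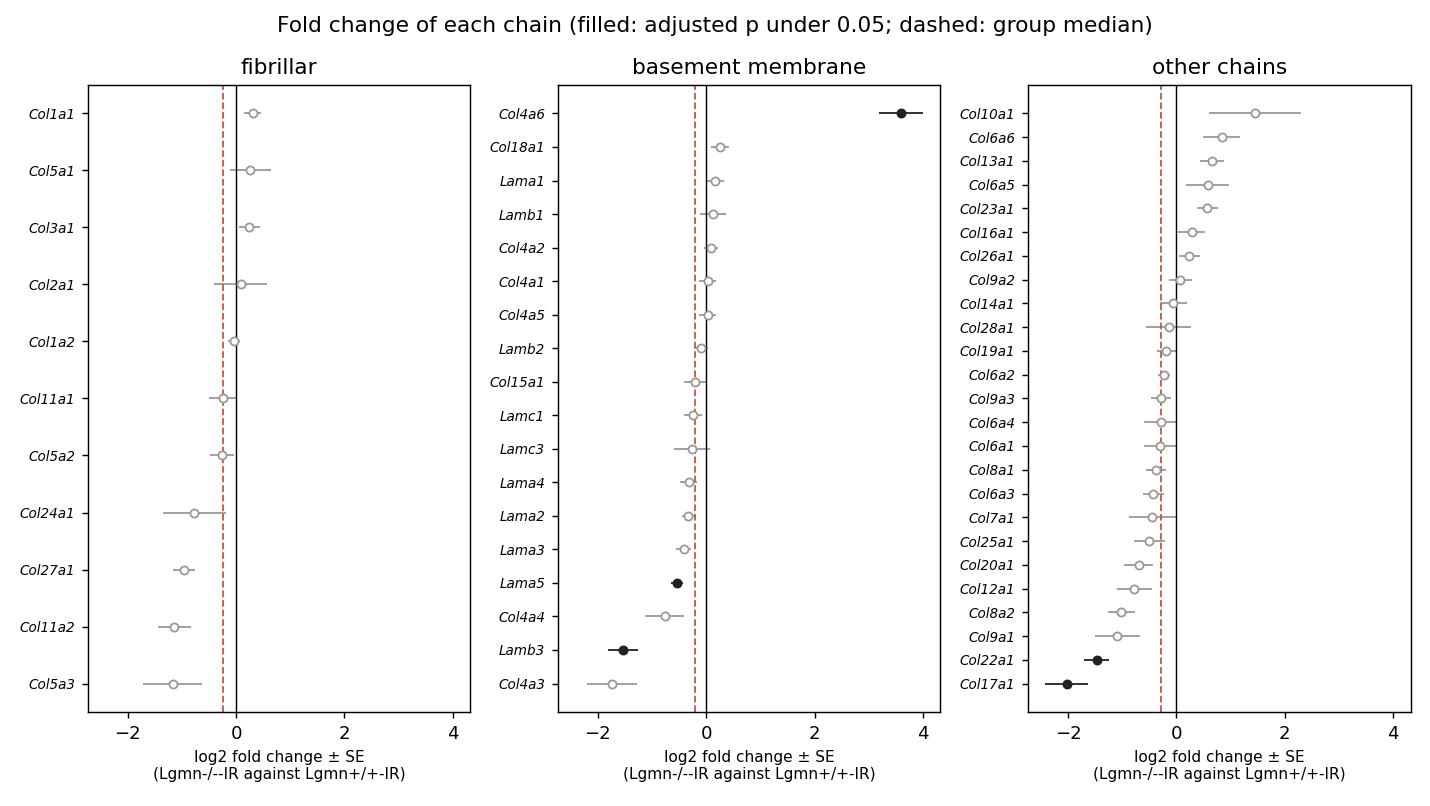
Log2 fold change (*Lgmn*-/--IR against *Lgmn*+/+-IR) ± SE of each of 54 chains, by group. Filled points have an adjusted *p* under 0.05 and the dashed line is the median of the whole group. *Col4a6* is alone at 3.60, and the medians of all 3 groups lie a little below 0.

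Summed over each group, the mean level was slightly lower in *Lgmn*-/--IR, and the libraries overlapped in all 3 groups. The fibrillar chains summed to 83.9 ± 15.3 against 70.9 ± 10.3 CPM (SD, *n* = 3 per genotype, 0.846-fold). The basement membrane chains summed to 244 ± 7.02 against 227 ± 13.8 CPM (0.928-fold), and the other chains to 174 ± 20.7 against 153 ± 20.5 CPM (0.883-fold). Summed as FPKM the folds were 0.843, 0.914 and 0.873. Over all 55 chains the libraries did not overlap, with sums of 531, 481 and 493 against 462, 455 and 435 CPM (0.899-fold), and 100.1, 91.0 and 91.5 against 89.5, 87.4 and 73.4 as FPKM. In bulk RNA, fewer cells of a type and less RNA per cell cannot be told apart.

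Markers of the cells that make or border this matrix moved in different directions. Of 14 markers of meningeal and perivascular fibroblasts, the main makers of fibrillar collagen in the brain, 1 passed the test, the GABA transporter gene *Slc6a13* (log2 fold change 0.68, adjusted *p* = 0.0275). An unadjusted *p* under 0.05 was found for 7 of the 14, against 3413 of all 18345 genes tested, and DESeq2 called 3. In 7 of the 14 every *Lgmn*-/--IR library was above every *Lgmn*+/+-IR library (50%, against 12.4% of all genes), and the list summed to 222–232 against 279–298 CPM (1.27-fold). None of 12 endothelial, 9 pericyte and 8 smooth muscle markers passed with edgeR or limma-voom, and 1, 0 and 0 had an unadjusted *p* under 0.05. DESeq2 called 1 endothelial marker and no pericyte or smooth muscle marker. Their sums overlapped between the genotypes (285–409 and 305–422 CPM, 167–203 and 125–189 CPM, and 34.2–68.1 and 34.6–77.4 CPM). Of 10 choroid plexus markers tested, 0 passed in any of the 3 tools (2 with an unadjusted *p* under 0.05), and they summed to 32.0–52.3 and 31.1–47.4 CPM. Oligodendrocyte markers fell (5 of 6, 3402–4124 and 2243–2408 CPM, 0.599-fold) and red blood cell genes rose (5 of 5, 7.59–15.8 and 234–2273 CPM). Of the red blood cell genes DESeq2 called 5 and limma-voom 3. Their sums in *Lgmn*-/--IR replicates 1 to 3 were 2273, 1728 and 234 CPM. Of 7 astrocyte markers 1 rose, *Aqp4* (log2 fold change 0.55, adjusted *p* = 0.0374, or 0.0671 under the striatal covariate). In the astrocyte list 4 had an unadjusted *p* under 0.05 and 4 lay above in every library (57.1%, against 12.4% of all genes), and the list summed to 3502–3792 and 3563–4059 CPM. None of 7 microglia markers passed with edgeR or limma-voom (2 with an unadjusted *p* under 0.05, 1 by DESeq2), and they summed to 189–218 and 163–177 CPM. The part of these cell types in the changes of the chains was not tested.

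**Figure D3:**
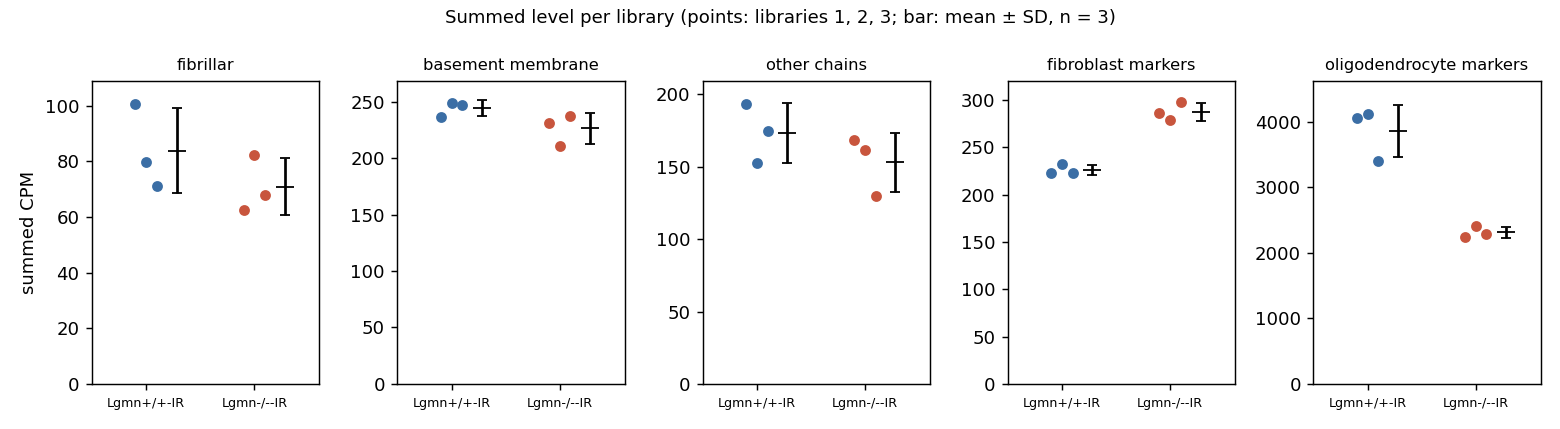
Summed CPM per library of the 3 groups of chains and of the fibroblast and oligodendrocyte markers, with the mean ± SD of 3 libraries. In each group of chains the genotypes overlap, while the fibroblast markers are higher in *Lgmn*-/--IR (279–298 against 222–232) and the oligodendrocyte markers lower (2243–2408 against 3402–4124).

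*Col4a6* was the chain with the largest change. It encodes a type IV chain that joins *Col4a5* in the basement membranes of smooth muscle and of some epithelia, and lies on chromosome X from 141165403 to 141474076 on the minus strand (GRCm38). It had 6, 2 and 6 counts against 50, 62 and 66, or 0.106 ± 0.0519 against 1.32 ± 0.189 CPM (12.4-fold higher). Every *Lgmn*-/--IR library was thus far above every *Lgmn*+/+-IR library, although both levels were low, at 0.0128 and 0.179 FPKM, rank 53 of the 55 chains. The log2 fold change was 3.60 (SE 0.40, adjusted *p* = 0.00524). It remained called with each library left out (log2 fold change 3.25 to 3.84, adjusted *p* at most 0.0288) and with the striatal covariate (adjusted *p* = 0.0115).

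The neighboring *Col4a5* did not pass the test. It starts 1309 bases from *Col4a6* on the other strand, so that the genes point away from each other over a shared stretch of 1308 bases. It had 106, 97 and 111 counts against 114, 111 and 104 (log2 fold change 0.03, SE 0.16, adjusted *p* = 0.944). The ratio of *Col4a5* to *Col4a6* in CPM was 17.7, 48.5 and 18.5 against 2.28, 1.79 and 1.58. Of the 14 tested genes within 1 Mb of *Col4a6*, none passed with edgeR, DESeq2 or limma-voom. An unadjusted *p* under 0.05 was found for 2 of these 14, against 3413 of all 18345 genes tested. The 3 genes annotated within *Col4a6*, all pseudogenes, had at most 1 count in any library.

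The stretches just before the 2 starts are shown because no other pair of neighboring chains compared here holds a chain that passed the test. The sequences are RefSeq's (GRCm38.p6), up to 250 bases before each start, and capitals mark a GC box (GGGCGG) or a CCAAT box (CCAAT) on either strand.
Col4a6, chrX:141474077-141474326, minus strand: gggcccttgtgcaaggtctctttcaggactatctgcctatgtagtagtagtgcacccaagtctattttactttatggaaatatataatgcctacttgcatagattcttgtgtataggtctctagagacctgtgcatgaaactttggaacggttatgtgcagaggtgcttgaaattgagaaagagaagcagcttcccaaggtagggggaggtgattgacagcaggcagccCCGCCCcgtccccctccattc
Col4a5, chrX:141475169-141475384, plus strand: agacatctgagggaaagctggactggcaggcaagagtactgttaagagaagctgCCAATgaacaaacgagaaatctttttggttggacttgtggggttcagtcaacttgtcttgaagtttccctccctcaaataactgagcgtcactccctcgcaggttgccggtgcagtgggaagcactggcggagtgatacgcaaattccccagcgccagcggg
The *Col4a6* stretch holds 1 GC box, read on the other strand as CCGCCC, just before the start, no CCAAT box and no TATA box (TATAAA). The *Col4a5* stretch was ended at the start that GENCODE gives, and holds 1 CCAAT box. Its full window of 250 bases before the RefSeq start also holds 1 GC box, past the end of the printed stretch. The *Col4a6* window has 3 CpG sites and 47.6% G or C, and that of *Col4a5* 10 CpG sites and 54.0%. Among 32817 windows of this length and position, 32.7% hold a GC box, 33.8% a CCAAT box and 12.4% a TATA box, and among the 44 windows found for 40 of the chains 54.5%, 31.8% and 11.4%. The promoter table held no entry for the other 15 chains. These matches describe the letters and are not tested sites.

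The other type IV chains fell into a high pair and a low pair. *Col4a1* and *Col4a2*, the chains of nearly every basement membrane, had 1382, 1383 and 1336 against 1634, 1158 and 1505 counts and 1976, 1553 and 1579 against 1916, 1845 and 1828 counts. Their log2 fold changes were 0.03 (SE 0.15, adjusted *p* = 0.936) and 0.09 (SE 0.13, adjusted *p* = 0.762). That of *Col4a1* was below 0 as FPKM and without some single libraries. *Col4a3* and *Col4a4*, chains known best from the kidney filter, start 72 bases apart on chromosome 1. *Col4a3* had 21, 31 and 30 counts against 6, 5 and 14 (log2 fold change −1.73, SE 0.46, adjusted *p* = 0.105), and *Col4a4* had 37, 33 and 37 against 15, 34 and 16 (−0.77, SE 0.36, adjusted *p* = 0.315). Both were lower in every *Lgmn*-/--IR library after scaling, and neither passed the test.

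**Figure D4:**
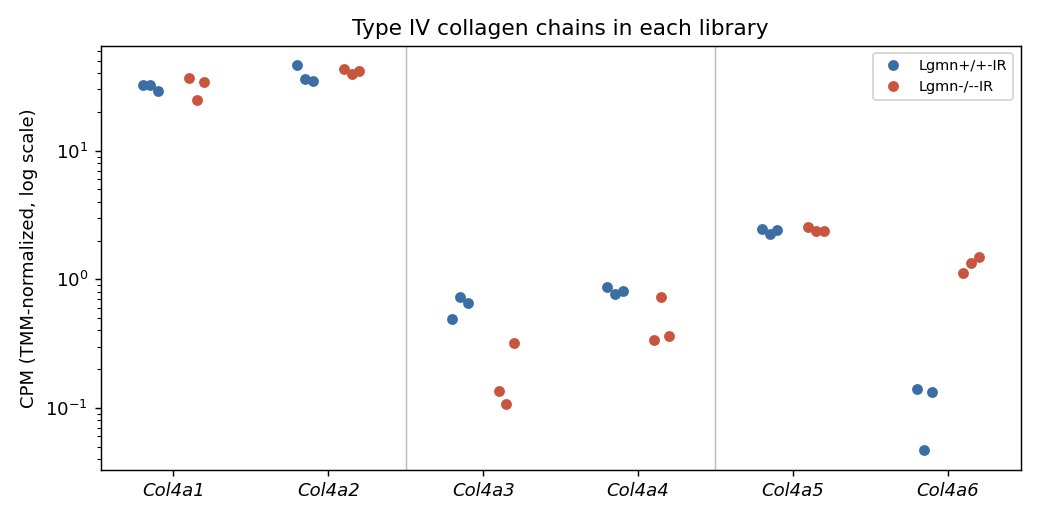
CPM (log scale) of the 6 type IV collagen chains in each library, as neighbors on the chromosome. *Col4a1*, *Col4a2* and *Col4a5* are close between the genotypes, *Col4a3* and *Col4a4* are lower in *Lgmn*-/--IR without passing the test, and *Col4a6* is 12.4-fold higher.

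Among the laminins, 2 of 11 chains fell (18.2%, against 1.68% of all genes tested) and none rose. A log2 fold change below 0 was found for 9 (81.8%, against 51.7% of all genes, median −0.26), and for 27 of the 44 collagen chains (61.4%). *Lamb3*, the beta chain of the epithelial laminin that also holds *Lama3*, had 161, 234 and 332 counts against 94, 95 and 68. The genotypes did not overlap, and *Lgmn*+/+-IR itself varied (5.51 ± 1.76 against 1.90 ± 0.309 CPM). The log2 fold change was −1.53 (SE 0.27, adjusted *p* = 0.0307), and without 1 library at a time it stayed between −1.74 and −1.28. The call held in 1 of these 6 fits, without *Lgmn*+/+-IR replicate 1 (adjusted *p* = 0.0203), and was lost without any of the other 5 (adjusted *p* up to 0.116). *Lamb3* spans chromosome 1 from 193207699 to 193343878 and overlaps 6 annotated genes, of which 3 were tested and none was called. These include *Hsd11b1* and *G0s2* on the other strand (adjusted *p* = 0.661 and 0.430). Whether reads were counted by strand is not given in the sources used here.

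*Lama5*, the alpha chain of mature endothelial basement membrane, changed little but evenly. It had 692, 705 and 727 counts against 526, 478 and 498, with a narrow spread in each (16.2 ± 0.239 against 11.2 ± 0.788 CPM). The log2 fold change was −0.54 (SE 0.11, adjusted *p* = 0.0434). The call was lost without any 1 library (adjusted *p* between 0.0797 and 0.182) and with the striatal covariate (adjusted *p* = 0.0776), while the log2 fold change stayed between −0.58 and −0.48. *Lama5* lies on chromosome 2 from 180176373 to 180225859.

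The laminin partners of these chains did not pass the test. *Lama3* and *Lama2*, an alpha chain of epithelia and one of astrocyte and muscle basement membrane, were lower in every *Lgmn*-/--IR library (log2 fold changes −0.42 and −0.33, adjusted *p* = 0.189 and 0.195). *Lama4*, the other alpha chain of endothelium, had 468, 432 and 438 against 437, 325 and 341 counts (−0.32, adjusted *p* = 0.332). The beta and gamma chains that most laminins share did not pass, with *Lamb1* at 0.13 (adjusted *p* = 0.811), *Lamb2* at −0.09 (0.745) and *Lamc1* at −0.25 (0.491). The log2 fold change of *Lamc1* was 0.04 as FPKM. The basement membrane collagens outside type IV did not pass either, with *Col15a1* at −0.20 (adjusted *p* = 0.642) and *Col18a1*, the source of endostatin, at 0.26 (0.480).

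**Figure D5:**
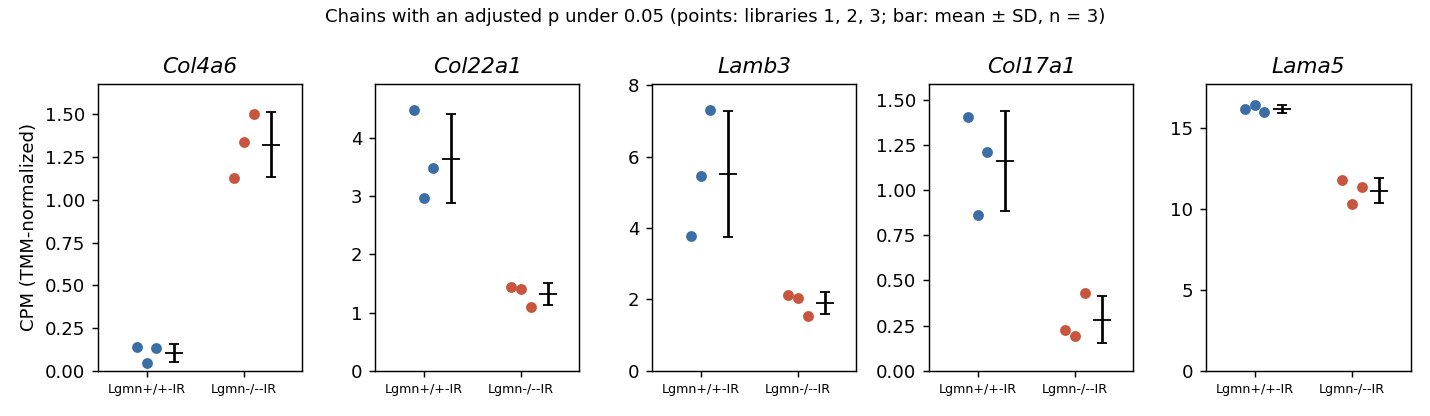
CPM in each library of the 5 chains with an adjusted *p* under 0.05, with the mean ± SD of 3 libraries per genotype. The genotypes do not overlap in any of the 5, which adds no support, since the 5 were picked by the test on these same libraries. *Lama5* shows the smallest change and *Col4a6* the lowest *Lgmn*+/+-IR level.

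The fibrillar chains of the meninges and vessel walls did not change detectably. *Col1a2* had 846, 825 and 847 counts against 755, 893 and 879 (log2 fold change −0.04, SE 0.10, adjusted *p* = 0.878). *Col1a1*, its partner in type I collagen, had 380, 452 and 393 against 430, 567 and 564 (0.31, SE 0.15, adjusted *p* = 0.339), and *Col3a1* had 148, 152 and 211 against 176, 216 and 230 (0.25, SE 0.19, adjusted *p* = 0.524). The genotypes overlapped in all 3. *Col5a2*, which joins type I fibrils as they start, was at −0.25 (adjusted *p* = 0.585).

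The lowest fold changes among the fibrillar chains were those of *Col5a3*, *Col11a2*, *Col27a1* and *Col24a1*. Of these *Col11a2* was expressed at a mean of 3.13 FPKM, just below *Col1a2* (3.25). *Col27a1*, a fibrillar chain of cartilage, had 281, 252 and 230 counts against 165, 120 and 118 (log2 fold change −0.96, SE 0.20, adjusted *p* = 0.0516). *Col11a2*, which sets fibril width in cartilage, had 1130, 947 and 791 against 389, 680 and 287 (−1.14, SE 0.30, adjusted *p* = 0.105). In both, every *Lgmn*-/--IR library was below every *Lgmn*+/+-IR library, and neither passed the test with edgeR. DESeq2 called both, and limma-voom called *Col27a1* (adjusted *p* = 0.0493). Without *Lgmn*-/--IR replicate 1 *Col27a1* passed with edgeR as well (adjusted *p* = 0.0454), and so did *Col11a2* without *Lgmn*-/--IR replicate 2 (adjusted *p* = 0.0366). *Col5a3* had 152, 77 and 42 against 48, 57 and 21 counts (−1.17, SE 0.55, adjusted *p* = 0.310), *Col24a1* 187, 58 and 48 against 42, 90 and 48 (−0.77, adjusted *p* = 0.523), and *Col5a1* 826, 411 and 380 against 448, 950 and 625 (0.26, adjusted *p* = 0.751). In all 3 *Lgmn*+/+-IR replicate 1 was the highest of its genotype by far, and the genotypes overlapped.

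Of the other chains, both that passed the test fell. *Col22a1*, a fibril-associated chain of tissue junctions such as that of muscle with tendon, had 191, 127 and 158 counts against 64, 65 and 48 (3.64 ± 0.769 against 1.31 ± 0.190 CPM). The genotypes were well apart, with a log2 fold change of −1.47 (SE 0.23, adjusted *p* = 0.0189). The call held without *Lgmn*+/+-IR replicate 2 (adjusted *p* = 0.0454) and was lost without any of the other 5 libraries (adjusted *p* up to 0.0732). *Col22a1* lies on chromosome 15 from 71795795 to 72034227.

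*Col17a1*, a transmembrane collagen that anchors epithelial cells in hemidesmosomes together with the laminin of *Lamb3*, had 60, 37 and 55 counts against 10, 9 and 19 (1.16 ± 0.275 against 0.284 ± 0.130 CPM, 4.09-fold lower). The log2 fold change was −2.02 (SE 0.39, adjusted *p* = 0.0417). The call held without *Lgmn*-/--IR replicate 3 (adjusted *p* = 0.0464) and was lost without any of the other 5 libraries (adjusted *p* up to 0.136). *Col17a1* lies on chromosome 19 from 47646344 to 47692094, and of 22 tested genes within 1 Mb 1 was called, *As3mt* (log2 fold change −0.57, adjusted *p* = 0.0449, or 0.0810 under the striatal covariate). Of these 22 genes, 5 had an unadjusted *p* under 0.05, against 3413 of all 18345 genes tested. DESeq2 called 3 of the 22 and limma-voom 1. No gene within 1 Mb of *Lama5* (38 tested), *Lamb3* (13) or *Col22a1* (4) was called by edgeR or limma-voom, where 5, 4 and 2 had an unadjusted *p* under 0.05, and DESeq2 called 1, near *Lamb3*.

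The most abundant of the other chains did not pass. *Col6a1* had 2839, 1438 and 2114 counts against 2307, 1875 and 1201 (log2 fold change −0.29, SE 0.30, adjusted *p* = 0.652), and the value was 0.00 without *Lgmn*+/+-IR replicate 1. Its partner *Col6a2* had 828, 771 and 783 against 672, 795 and 640 counts (−0.22, adjusted *p* = 0.338), which after scaling lay lower in every *Lgmn*-/--IR library. *Col25a1*, a transmembrane collagen of neurons that is found in amyloid plaques, had 642, 760 and 1341 against 836, 531 and 604 (−0.50, adjusted *p* = 0.402). The fibril-decorating *Col9a2* and *Col9a3* were at 0.08 and −0.29 (adjusted *p* = 0.881 and 0.469). *Col8a2*, a short chain of network collagen, had 107, 105 and 94 against 37, 65 and 54 (−1.02, adjusted *p* = 0.0826), and was called by DESeq2 only.

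Among the 25 other chains, 8 lay lower in every *Lgmn*-/--IR library, a larger share than the 13.3% of all genes tested. Another 3 of the 25 were higher in every *Lgmn*-/--IR library without passing the test, a share close to the 12.4% of all genes. These were the transmembrane chains *Col13a1* (57, 62 and 62 against 107, 79 and 107 counts, log2 fold change 0.66, adjusted *p* = 0.172) and *Col23a1* (343, 528 and 495 against 569, 814 and 706, 0.57, adjusted *p* = 0.182), and *Col26a1* (0.24, adjusted *p* = 0.556). *Col10a1*, the chain of hypertrophic cartilage, had the highest fold change of the group (1.45, SE 0.85, adjusted *p* = 0.412), but 0, 8 and 20 counts against 23, 38 and 18, and a count of 0 allows up to 3. It overlaps *Nt5dc1* on the other strand, which had 45 to 82 counts.

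Chains that assemble together or lie side by side on a chromosome were compared by their ratio in each library. Over 6 pairs, an exact two-sided permutation test of 3 against 3 libraries cannot go below *p* = 0.10. That value was reached by *Col4a5* to *Col4a6* (28.2 ± 17.6 against 1.88 ± 0.361) and by *Col1a1* to *Col1a2* (0.487 ± 0.0532 against 0.615 ± 0.0398), a pair added after its values were seen (adjusted *p* = 0.30 for both). The *Col1a1* to *Col1a2* ratio was 0.449, 0.548 and 0.464 against 0.570, 0.635 and 0.642, so that the genotypes did not overlap. The ratios of *Col4a1* to *Col4a2* (0.812 ± 0.10 against 0.768 ± 0.122) and *Col6a1* to *Col6a2* (2.67 ± 0.782 against 2.56 ± 0.797) overlapped, with exact *p* = 0.6 and 1. Those of *Col4a3* to *Col4a4* (0.773 ± 0.189 against 0.474 ± 0.370) and *Col3a1* to *Col5a2* (1.41 ± 0.268 against 2.08 ± 0.715) each gave an exact *p* of 0.3.

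The proteins that bind, build, hold and cut this matrix were followed in 5 lists. Of all genes tested, 3.33% passed (1.65% higher and 1.68% lower). Of 31 tested matrix partners, 3 passed (9.68%). *Tnc*, a matrix glycoprotein of reactive astrocytes, rose (200, 202 and 228 against 368, 413 and 437 counts, log2 fold change 0.91, adjusted *p* = 0.014). The microfibril genes *Fbn1* and *Fbn2* fell (342, 265 and 289 against 146, 194 and 147, −0.93, adjusted *p* = 0.0382, and 406, 225 and 213 against 104, 110 and 100, −1.48, adjusted *p* = 0.0409). DESeq2 called both, while limma-voom called *Fbn1* but not *Fbn2* (adjusted *p* = 0.0639). Of the collagen making enzymes 2 of 28 rose (7.14%). They were *P4ha1*, the catalytic subunit of prolyl hydroxylase (1347, 1676 and 1758 against 2889, 3181 and 2919, 0.87, adjusted *p* = 0.0084), and *Colgalt2*, which adds galactose to collagen (272, 221 and 250 against 391, 404 and 440, 0.69, adjusted *p* = 0.0483, or 0.0755 under the striatal covariate). All 5 were without overlap between the genotypes, as were 12.4% (higher) and 13.3% (lower) of all genes. Since the 5 were picked by the test on these same libraries, this adds no support. *P4ha1* remained called with any 1 library left out (adjusted *p* at most 0.0361). The others lost the call without some libraries, with the adjusted *p* rising to as much as 0.0835 for *Tnc*, 0.138 for *Fbn1*, 0.152 for *Fbn2* and 0.192 for *Colgalt2*.

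Of 28 proteases and inhibitors 1 fell (3.57%, close to the 3.33% of all genes), *Adamts4*, which cleaves proteoglycans and is made by oligodendrocytes (913, 1008 and 876 against 520, 585 and 526 counts, log2 fold change −0.82, adjusted *p* = 0.012, and at most 0.0685 with 1 library left out). None of 26 matrix receptors and none of 20 genes of TGF-beta signaling, which drives collagen transcription, passed with edgeR or limma-voom. In these lists 5 and 4 genes had an unadjusted *p* under 0.05, against 3413 of all 18345 genes tested, and DESeq2 called 1 gene in each. The median log2 fold changes of the 5 lists were 0.02 (partners), 0.07 (enzymes), −0.10 (proteases and inhibitors), 0.01 (receptors) and 0.12 (TGF-beta signaling), against −0.24 for the 55 chains.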

How the data were processed

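The data were 6 cortical libraries on day 3 after 10 Gy. Per the labels and the study's methods, the authors filtered reads with Trimmomatic 0.36, mapped them with HISAT2 2.0 to GRCm38 (the build in the submitters' processing notes), and deposited the raw count of reads per gene without normalization. The FPKM, computed with StringTie 1.3.3b, was deposited by the authors for the same genes. The read counter, its annotation and its use of strand are not given in the sources used here. Positions come from GENCODE M21 (GRCm38), which held 51633 of 51826 gene IDs, and promoter sequences from RefSeq (GRCm38.p6).

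Counts were tested in R 4.3.3 with edgeR 4.0.16 (TMM scaling, low genes removed with filterByExpr, quasi-likelihood test of genotype with no other term in all 6 libraries, Benjamini-Hochberg adjustment over 18345 genes). A call is an adjusted p under 0.05. CPM are TMM-scaled counts, given as mean ± SD over 3 libraries. The study's methods name limma, without the values it was run on, and since counts were deposited a count model was used. Alternatives were DESeq2 1.42.0, limma-voom (limma 3.58.1), limma on log2(FPKM + 1) and log2(FPKM + 0.1) for genes with a mean FPKM over 0.1, other size factors, other filters, robust dispersion, the replicate block and the omission of each library. A striatal covariate was added after the data were seen. The scripts were tested on simulated data, with 200 of 18345 genes changed. Unchanged genes there made up 6.08% of edgeR's calls, 6.16% of limma-voom's and 21.0% of DESeq2's. With the replicate block the share was 9.35%. A call by DESeq2 alone is therefore weaker. Without molecular identifiers, reads may be copies of 1 molecule, so counting error understates the error. Between libraries of 1 genotype the chi-square of the counts averaged 28.7 to 102 per gene, far over sampling noise, and each was counted as 1 sample.

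The chains and lists were chosen with earlier results of these data known. Named are Lgmn, every chain called, in each group the 4 chains with the highest mean FPKM and the 3 with the largest absolute log2 fold change, the chains of the pairs, and up to 5 called genes of each list. In the totals 1 chain is counted whose own results are not reported here. Other chains and genes named were chosen after their values were seen.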

Additional observations from a re-analysis of the deposited data

How the results depend on the processing

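*Col4a6* was called in 13 of the 14 fits that could include it, and its low level kept it out of the other 3 (both FPKM fits and the filter of 10 counts in every library). The exception was the replicate block. The labels do not say whether same-numbered libraries of both genotypes share a batch or litter. Their deviations from the group means did not rise together (correlations −0.252, −0.0464 and −0.0276). With 3 libraries per genotype, these values cannot show that nothing is shared. With the replicate block, 150 genes were called in place of 611, with 0 chains (also 0 basement membrane and 0 other chains), 0 matrix partners, 0 enzymes and 0 proteases. The adjusted *p* was then 0.0526 for *Col4a6*, 0.0816 for *Col22a1*, 0.112 for *Col17a1*, 0.143 for *Lamb3* and 0.162 for *Lama5*, at log2 fold changes of 3.63, −1.46, −2.06, −1.49 and −0.54.

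DESeq2 called 1298 genes, 8 chains (2 fibrillar), 8 partners, 3 proteases, 1 receptor and 1 TGF-beta gene. Limma-voom and robust dispersion each called 1 fibrillar chain. On log2(FPKM + 1) 0 chains were called (0 basement membrane, 0 other), with 1 partner, 0 enzymes and 1 receptor, and on log2(FPKM + 0.1) 1 chain (0 basement membrane, 1 other), with 1 partner, 0 enzymes and 1 receptor. With at least 10 counts in every library, 406 genes and 2 chains were called (1 basement membrane, 1 other), with 1 enzyme. With every gene of at least 1 count, 404 genes and 2 chains were called (1 basement membrane, 1 other), with 1 partner and 1 enzyme. Upper quartile factors called 1 enzyme. The striatal covariate called 5 partners, 1 enzyme and 2 proteases. Without 1 library at a time, 223 to 500 genes were called, with 1 to 2 chains (0 to 1 fibrillar, 1 to 2 basement membrane, 0 to 1 other), 0 to 3 partners, 1 enzyme and 0 to 1 proteases. These fits rest on fewer samples, and for the other alternatives the cause was not tested.

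Summed levels of the 3 groups moved by less than the spread between libraries under all alternatives run. Of the log2 fold changes of named chains under the alternatives, 369 kept their sign and side of the threshold, 38 lost a call, 6 gained one and 19 changed sign, all of the latter in chains that were not called. As log2(FPKM + 1) and log2(FPKM + 0.1), these were *Col4a1* (−0.0401 and −0.0497), *Col4a5* (−0.0026 and −0.0079), *Col9a2* (−0.0673 and −0.0766) and *Lamc1* (0.0404 and 0.0405). Without 1 library at a time, *Col1a2* ranged from −0.0853 to 0.0306, *Col4a1* from −0.0806 to 0.18, *Col4a5* from −0.0125 to 0.0608, *Col5a1* from −0.0277 to 0.74, *Col6a1* from −0.53 to 0.00117, *Col9a2* from −0.12 to 0.21 and *Lamb2* from −0.16 to 0.00937. With 2 to 66 counts per library for *Col4a6* and 9 to 60 for *Col17a1*, depth limits how precisely their folds are known (SE 0.40 and 0.39).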
